A study of Mus musculus with 2 samples.

Results

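Genes of transforming growth factor beta (TGF-beta) superfamily signalling were examined in the newborn mouse ovary, in a mutant pool with hedgehog signalling switched on in somatic cells and in a control pool. The members were chosen by gene symbol. They are the genes named Bmp, Gdf, Id, Smad, Tgfb, Tgfbr, Acvr, Acvrl, Bmpr, Ltbp or Grem with a number, apart from a few symbols that the rule leaves out, and Inha, Inhba, Inhbb, Nog, Chrd and Bmper. They comprised 102 probe sets of 51 genes, out of 45101 probe sets on the array, of which 34945 carried a single gene symbol. The rule uses symbols and no signal, but it was written with earlier results of these data known.

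Mice of both groups carried the SmoM2 allele, a conditional, constitutively active form of the hedgehog transducer Smoothened, and were 2 days old. The control group had the genotype Amhr2(+/+)-SmoM2, with no Cre, and the mutant group Amhr2(cre/+)-SmoM2, with Cre at 1 copy of the gene for the anti-Müllerian hormone receptor, which is active in somatic cells of the gonad. RNA from the ovaries of 8 mice per group was combined in equal amounts and hybridised to 1 array, so each group is a single pool with no replicate. SmoM2 activation, Cre and the altered Amhr2 copy differ between the pools together and cannot be told apart. No difference given here has a replicate error or a p-value, and the values describe these 2 arrays.

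Ligands of the superfamily are secreted dimers that bring together type I and type II receptor kinases on the cell surface. The type I receptor then phosphorylates Smad proteins, which enter the nucleus with Smad4. BMP-type signals pass through Smad1, Smad5 and Smad9, and TGF-beta and activin signals through Smad2 and Smad3. In the ovary these factors carry messages between oocytes, granulosa cells and the surrounding stroma, and activins and inhibins are named for raising or lowering the release of follicle-stimulating hormone.

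Signals are probe-set intensities on a linear scale. A probe set counted as measured when its signal reached 80.7, the median of all values, on at least 1 array. By this rule 38 of the 51 member genes were measured, through 61 of the 102 probe sets, and each gene is shown by the brightest of its measured probe sets. Log2 ratios of mutant to control were taken after adding 22.2 to both signals, which understates differences of dim genes, whereas folds are plain ratios of signals. Where 1 signal lay under 80.7 the fold is a lower bound, the brighter signal over 80.7. Of the 38 genes, 36 were at or above the minimum in both pools. The other two, Inhba and Acvrl1, were measured only through the mutant pool, so a higher mutant value was a condition of their entry. Both arrays had the same trimmed mean signal, 500.003.

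Of the 38 measured member genes, 11 had a log2 ratio of at least 1.5-fold upward in the mutant pool, or 28.9%, and 0 had one of that size downward. Over all 12308 measured genes of the array, 9.32% were that much higher and 7.9% that much lower. At 2-fold there were 2 members higher, Inhba and Bmp5, and 0 lower, against 3.21% and 1.4% of all measured genes. The median log2 ratio was 0.27 for the members and -0.02 for all measured genes. Of the members 24 had a ratio above 0 (63.2%) and 14 below, against 5848 (47.5%) and 6456 of all measured genes. Among probe sets of the same gene the log2 ratio had an SD of 0.385 over the whole array and of 0.325 over the 17 member genes with several measured probe sets. Within 0.385 of 0 lay 23 of the 38 members (60.5%), close to the 66.4% of all measured genes. The genes just inside the 1.5-fold limit were Smad1 and Id3, at 1.52-fold and 1.54-fold, and those just outside were Tgfb2 and Inha, at 1.46-fold and 1.44-fold.

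**Figure D1:**
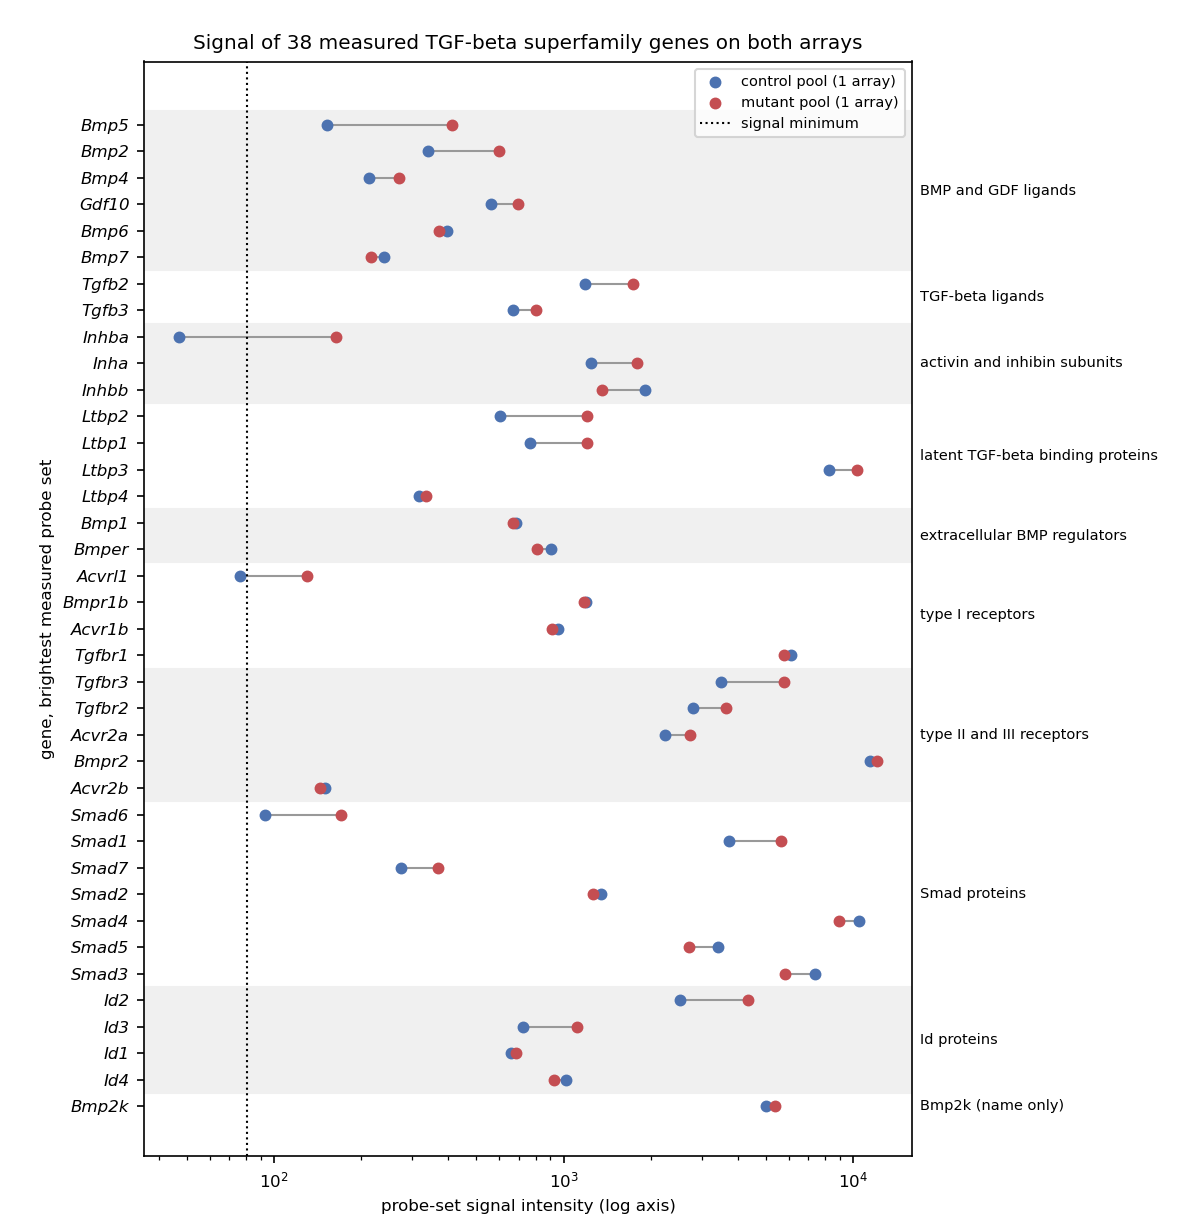
Signal intensity (log axis) of the 38 measured member genes in the control pool (blue) and the mutant pool (red), 1 array each, ordered by role, with a dotted line at the signal minimum of 80.7. Inhba and Bmp5 show the widest gaps, and the mutant point lies right of the control point for all 4 Ltbp genes.

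The start regions of 4 members are printed because their values frame the results: Bmp5 and Inhba are the members at 2-fold or more, and Id2 and Id4 are related genes of which Id2 was higher and Id4 was not. Each line gives bases 250 to 1 before the transcription start, 5′ to 3′ on the gene's own strand, from RefSeq (GRCm38.p6). Capitals mark the letters GGCGCC, a GC-rich motif that Smad proteins can bind. The regions are chr9:75775115-75775364 (plus strand) for Bmp5, chr13:16011601-16011850 (plus strand) for Inhba, chr12:25096093-25096342 (minus strand) for Id2 and chr13:48260866-48261115 (plus strand) for Id4.
Bmp5: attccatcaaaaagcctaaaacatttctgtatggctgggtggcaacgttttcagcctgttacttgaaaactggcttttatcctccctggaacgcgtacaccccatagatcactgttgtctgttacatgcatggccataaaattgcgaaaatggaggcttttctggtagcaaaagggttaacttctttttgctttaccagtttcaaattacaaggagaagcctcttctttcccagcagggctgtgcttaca
Inhba: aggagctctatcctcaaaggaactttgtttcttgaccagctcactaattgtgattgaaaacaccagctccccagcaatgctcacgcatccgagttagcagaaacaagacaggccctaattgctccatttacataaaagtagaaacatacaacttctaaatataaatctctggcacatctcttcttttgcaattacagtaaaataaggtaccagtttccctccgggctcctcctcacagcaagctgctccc
Id2: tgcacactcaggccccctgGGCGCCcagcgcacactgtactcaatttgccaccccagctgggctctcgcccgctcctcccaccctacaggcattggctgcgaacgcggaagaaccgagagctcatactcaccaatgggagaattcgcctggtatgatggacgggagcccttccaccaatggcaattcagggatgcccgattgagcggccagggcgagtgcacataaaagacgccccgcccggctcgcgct
Id4: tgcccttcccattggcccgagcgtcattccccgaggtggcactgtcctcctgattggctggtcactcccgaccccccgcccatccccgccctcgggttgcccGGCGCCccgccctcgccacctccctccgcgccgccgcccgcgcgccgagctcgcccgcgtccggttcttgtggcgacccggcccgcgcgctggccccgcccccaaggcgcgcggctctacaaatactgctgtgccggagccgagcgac

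GGCGCC begins 231 bases before the start in Id2 and 148 bases before it in Id4, so the gene that was higher and the gene that was not both hold it, and it is absent from the windows of Bmp5 and Inhba. Promoters were found for 38 of the 51 member genes, 47 start sites in all, of which some overlap. GGCGCC, which reads the same on both strands, was present in 11 of these 47 windows (23.4%) and in 9.59% of all 32851 windows of the same length. The member windows were also richer in G and C, with a median of 64.4% against 52.4% for all. Of the 11 members at 1.5-fold or more, 8 had a window, and Bmp2, Tgfbr3 and Acvrl1 had none. By gene, 1 of these 8 held the motif, Id2, and 6 of the 20 other measured members with a window did. The hedgehog effector motif GACCACCCA, searched on both strands, was in 0 member windows and in 0.225% of all windows. The Smad palindrome GTCTAGAC was in 0 member windows and in 0.167% of all. Bmp5 and Inhba had G and C contents of 42.8% and 43.2%, the lowest among the member windows.

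Among the secreted ligands, Inhba and Bmp5 had the highest log2 ratios. Inhba encodes the beta A subunit, which forms activin A as a dimer and inhibin A with the alpha subunit. Its signal was 47.0 on the control array and 164 on the mutant array, at least 2.03-fold higher, with a log2 ratio of 1.43. The control value is under the signal minimum, and the other Inhba probe set was dim on both arrays, at 2.9 and 2.6, so the difference rests on 1 probe set. Inha, the alpha subunit of the inhibins, read 1243 on the control array and 1791.5 on the mutant array, a log2 ratio of 0.52. Inhbb, the beta B subunit, lay the other way, at 1914.5 on the control array and 1358 on the mutant array, a log2 ratio of -0.49 that was the lowest of all measured members. Its second probe set, at 89.1 and 90.8, showed no such gap. The 3 subunits of activins and inhibins did not share a direction, and of them only Inhba passed 1.5-fold.

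Bmp5 belongs to the ligand subgroup that also holds Bmp6, Bmp7, Bmp8a and Bmp8b. It read 153 on the control array and 411 on the mutant array, a 2.69-fold difference with a log2 ratio of 1.31. Its second measured probe set, at 55.2 and 110.4, had a log2 ratio of 0.78, and the third was dim in both pools, at 6.0 and 42.4. Only the brightest was at or above the signal minimum on both arrays, so the 2.69-fold value rests on 1 probe set. The second gives only a bound, at least 1.37-fold higher. The other measured ligands of the subgroup differed little. Bmp6 read 397 and 371 and Bmp7 read 240.3 and 217 on the control and mutant arrays, with log2 ratios of -0.09 and -0.13. Bmp2, which forms a separate subgroup with Bmp4, read 339 on the control array and 599.5 on the mutant array, 1.77-fold higher. Bmp4 read 213 and 269.8, a log2 ratio of 0.31. Gdf10, a relative of Bmp3, read 564 and 697, a log2 ratio of 0.30. Of the 13 BMP and GDF ligand genes on the array, 6 were measured, and 2 of these passed 1.5-fold.

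Of the TGF-beta ligands proper, Tgfb2 gave probe sets that disagreed. Its brightest read 1189 on the control array and 1740 on the mutant array, a log2 ratio of 0.54. A second probe set, at 664 and 938, and another, at 151 and 268, had log2 ratios of 0.49 and 0.74. The last one read 298 on the control array and 172 on the mutant array, a log2 ratio of -0.72, and it was the only measured member probe set at 1.5-fold or more downward. By probe set, 1 of 61 members was that much lower and 14 that much higher. Over the whole array the counts were 2031 and 1812 of 20576 measured probe sets. Tgfb3 read 670.1 and 803, a log2 ratio of 0.25. Tgfb1 stayed under the signal minimum on both of its probe sets.

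**Figure D2:**
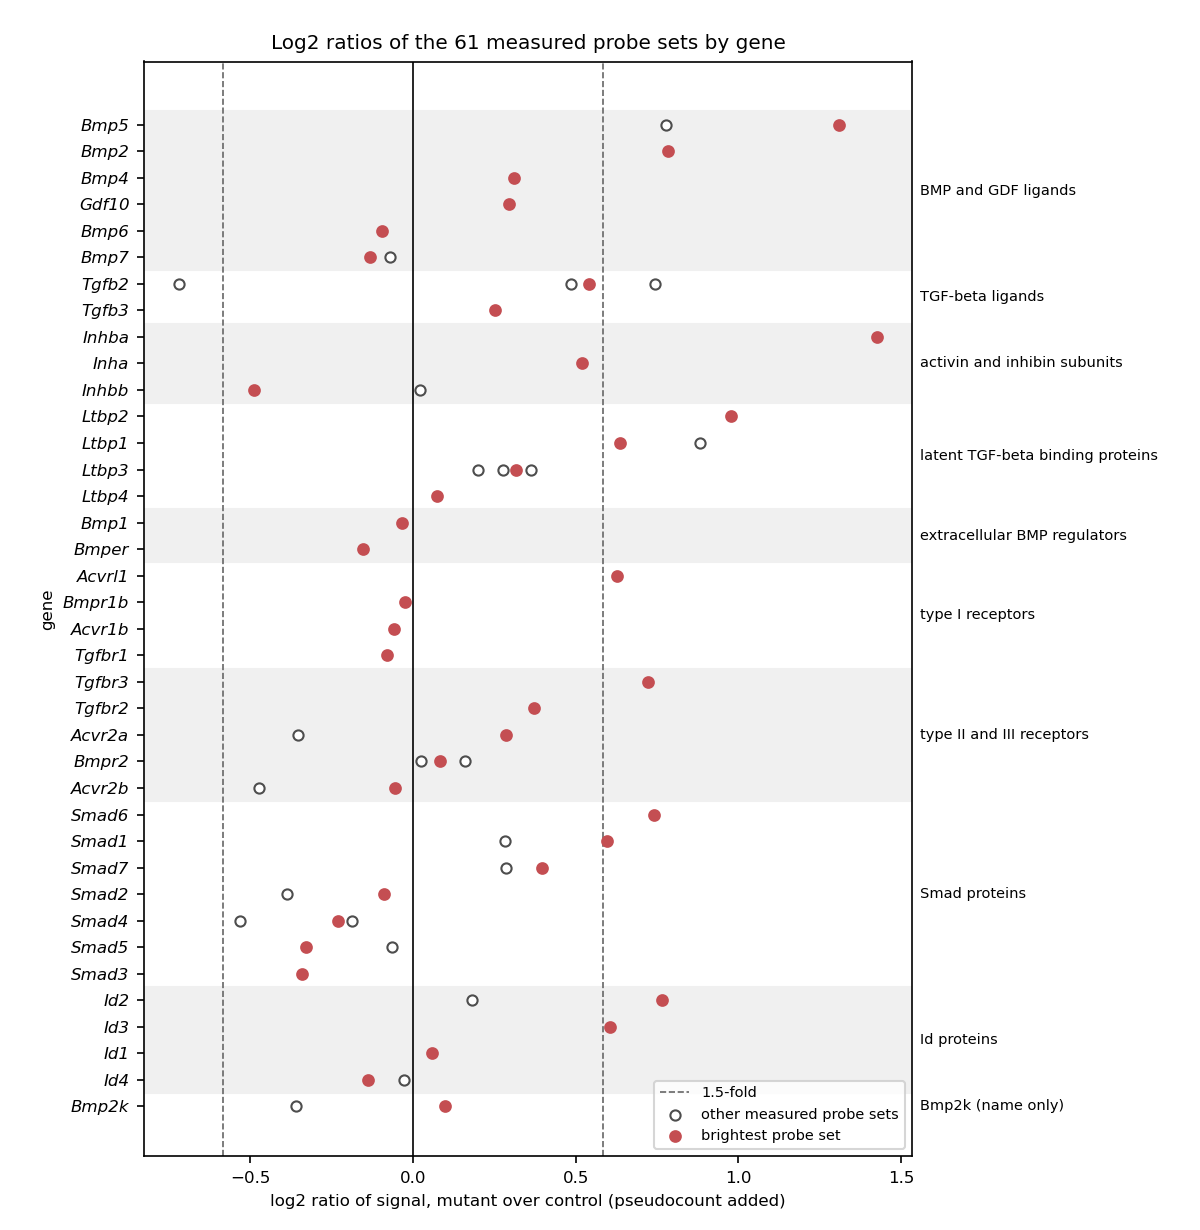
Log2 ratio of mutant over control for each of the 61 measured probe sets of the 38 member genes, with the brightest probe set of a gene in red, others open, and dashed lines at 1.5-fold. The 4 probe sets of Ltbp3 lie between 0.20 and 0.36, whereas those of Tgfb2 run from -0.72 to 0.74.

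The latent TGF-beta binding proteins, matrix proteins that mostly hold TGF-beta in an inactive store, had log2 ratios above 0 for all 4 genes. Ltbp2, which binds fibrillin microfibrils and is not known to bind latent TGF-beta, read 603 on the control array and 1209 on the mutant array. That is 2.00-fold on the plain signals, with a log2 ratio of 0.98 that falls just short of the 2-fold count. Ltbp1 read 768 and 1206, or 1.57-fold. Its second measured probe set, at 114 and 229, had a log2 ratio of 0.88, and the third was dim, at 41.0 and 37.8. Ltbp3 read 8263 and 10304.5, a log2 ratio of 0.32, and its 4 probe sets all lay above 0. Ltbp4 read 317 and 334, a log2 ratio of 0.07. All 4 genes of the family were measured, their median log2 ratio was 0.48, and 2 of the 4 passed 1.5-fold.

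Of the member genes that act on BMP ligands outside the cell, 2 of 5 were measured. Nog, Chrd and Grem1, which encode noggin, chordin and gremlin and bind BMPs outside the cell, were under the signal minimum on both arrays. Bmper, a secreted BMP-binding modulator, read 902 on the control array and 808 on the mutant array, a log2 ratio of -0.15. Bmp1, which despite its name is a metalloprotease that cleaves procollagen and chordin, read 684 and 668, a log2 ratio of -0.03.

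Most receptors differed by less than 1.5-fold. The 2 that passed it were Tgfbr3 and Acvrl1. Tgfbr3 encodes betaglycan, a co-receptor that presents TGF-beta2 and also binds inhibin. It read 3484 on the control array and 5761 on the mutant array, 1.65-fold higher, while a second, dim probe set read 3.6 and 2.4. Acvrl1, a type I receptor best known in endothelial cells, read 76.2 and 129.9, at least 1.61-fold higher, while its remaining probe set was dim at 47.7 and 46.5. The remaining type I receptors were close to 0. Tgfbr1 read 6095 and 5760, Acvr1b 954 and 915, and Bmpr1b 1196.5 and 1176, with log2 ratios of -0.08, -0.06 and -0.02.

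Among type II receptors, Tgfbr2 read 2797 on the control array and 3629.5 on the mutant array, a log2 ratio of 0.37. Bmpr2 had 3 measured probe sets with log2 ratios between 0.03 and 0.16, the brightest reading 11391 and 12080. The activin type II receptor Acvr2a had log2 ratios of 0.29 and -0.35 on its probe sets, which therefore gave no common direction. Acvr2b read 150.3 and 144, a log2 ratio of -0.06, and -0.47 on a second probe set. By their brightest probe sets, all type I and type II receptors other than Acvrl1 lay within the probe-set SD of 0.385.

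The Smad genes lay on both sides of 0, and Smad1 and Smad5, which both relay BMP signals, lay on opposite sides. Smad6 and Smad7 encode inhibitory Smads, which restrain the pathway and are themselves induced by it. Smad6 read 92.8 on the control array and 169.8 on the mutant array, 1.83-fold higher on its only measured probe set, and the control value was near the signal minimum. Smad7 read 275 and 369, a log2 ratio of 0.40, with 0.29 on its second probe set. Smad1, which relays BMP signals, read 3718 and 5636.5, or 1.52-fold. Its second probe set, which reads 3212 and 3908, had a log2 ratio of only 0.28, so the 1.5-fold count for Smad1 rests on a probe set whose type can detect several transcripts.

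The other measured Smads were lower in the mutant pool by small amounts. Smad3, a mediator of TGF-beta and activin signals, read 7397 and 5832, a log2 ratio of -0.34. Smad5 read 3406 and 2705, a log2 ratio of -0.33, and Smad2 read 1346.5 and 1265, a log2 ratio of -0.09. The common partner Smad4 had log2 ratios from -0.53 to -0.19 on 3 probe sets, the brightest reading 10438 and 8898. All measured probe sets of these 4 genes had log2 ratios below 0, and none reached 1.5-fold. Of the Smad genes, 7 of 8 were measured, and Smad9 stayed under the signal minimum at 4.1 and 39.4.

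The Id genes encode helix-loop-helix proteins that lack a DNA-binding region and block other factors of that class. Id1, Id2 and Id3 are widely used as readouts of BMP signalling. Id2 read 2531 on the control array and 4314 on the mutant array, 1.70-fold higher, but its second measured probe set, at 805 and 915, had a log2 ratio of 0.18. Id3 read 722 and 1109, 1.54-fold higher on its only probe set. Id1 read 659 and 687, a log2 ratio of 0.06, so it differed by less than the probe-set spread. Id4 read 1023 and 927, with log2 ratios of -0.14 and -0.03, and a further, dim probe set read 80.1 and 29.1. The readout genes of BMP signalling therefore did not share a size of difference, and 2 of the 4 Id genes passed 1.5-fold. Bmp2k, a kinase named for its induction by BMP2 that fits the symbol rule without being a pathway component, had log2 ratios of 0.10 and -0.36.

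Agreement between probe sets was uneven. Of the 17 members with several measured probe sets, 13 had all ratios on the same side of 0, and the exceptions were Tgfb2, Inhbb, Acvr2a and Bmp2k. Of the 11 members at 1.5-fold or more, 4 had a second measured probe set. It was above 0 in all 4, and at 1.5-fold or more by log2 ratio in 2, Bmp5 and Ltbp1, but not in Id2 and Smad1. That of Bmp5 entered only through the mutant array and has a bound of at least 1.37-fold, so of the 4 only Ltbp1 had a second probe set measured on both arrays at this size. Over the whole array 398 genes at 1.5-fold or more upward had a second measured probe set, and it passed 1.5-fold upward in 41.0%. The other 7 members, Inhba, Ltbp2, Bmp2, Smad6, Tgfbr3, Acvrl1 and Id3, rest on 1 measured probe set each.

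Other genes of the pathway were listed by role outside the symbol rule. Log2 ratios ran from -1.30 to 1.72 for extracellular modulators and co-receptors, against -0.49 to 1.43 for the members. They ran from -0.45 to 1.04 for intracellular regulators and from -0.81 to 1.13 for target genes. Of the 35 extracellular modulators and co-receptors listed, 24 were measured, with a median log2 ratio of 0.33. Of these, 8 passed 1.5-fold upward and 4 downward, against 9.32% and 7.9% of all measured genes. Of the 8, 5 were measured only through the mutant array, and of the 4, 1 only through the control array, so their difference was a condition of their entry. Htra3, a secreted serine protease, read 1458 on the control array and 4847.5 on the mutant array, 3.33-fold higher. Chrdl1, a chordin-like BMP antagonist, was at least 2.61-fold higher, at 210.6 against 78.1. Amhr2 is itself a type II receptor of the superfamily and the gene that carries Cre in the mutant. It read 8591 on the control array and 3486 on the mutant array, a log2 ratio of -1.30. That probe set and the next, with -1.26, are of a type that can detect several transcripts. The remaining, dimmest probe set, at 253 and 207, is not of that type and had -0.26. Thbs1, the gene of thrombospondin 1, which can release active TGF-beta from its store, read 1620 on the control array and 834 on the mutant array, a log2 ratio of -0.94, but -0.09 on its second probe set. Fst, named after its values were seen, encodes follistatin, the main binding protein of activins. It read 3462 on the control array and 2169 on the mutant array, a log2 ratio of -0.67, and its second probe set gave -0.94. Eng, the co-receptor that works with Acvrl1 and likewise named after its values were seen, read 239 and 374, 1.56-fold higher. Eng also stands on the endothelial marker list and is among the markers counted there as higher, so the counts share it.

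Of the 26 intracellular regulators listed, 25 were measured, with a median log2 ratio of 0.05. Of these, 3 passed 1.5-fold upward and 0 downward, against 9.32% and 7.9% of all measured genes. The upward count was thus close to the share over the array. Zfp423, a zinc finger protein that binds Smads, read 345 on the control array and 731 on the mutant array, 2.12-fold higher. Zeb2, a Smad-interacting repressor, was 1.99-fold higher, but its 4 probe sets had log2 ratios from -0.56 to 1.33. Tob1, an antiproliferative protein, was 1.73-fold higher. Skil, a repressor that binds Smads, had a log2 ratio of 0.56. Of the 18 target genes listed, 12 were measured, with a median log2 ratio of 0.34. Of these, 3 passed 1.5-fold upward and 2 downward, against 9.32% and 7.9% of all measured genes. Ccn2, connective tissue growth factor, read 1685 and 3704, or 2.20-fold higher. Sox9, a transcription factor of cartilage and testis, read 53.0 and 141, at least 1.75-fold higher, and was measured only through the mutant array. Fn1, the remaining gene counted upward, was 1.51-fold higher, just inside the limit, but its second probe set had a log2 ratio of -0.18. Msx1, a homeobox target of BMP signalling, read 218 on the control array and 115 on the mutant array, and Tnc, the gene of tenascin C, read 1139.5 and 718, with log2 ratios of -0.81 and -0.65. The listed targets thus included genes that lay well to either side of 0.

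**Figure D3:**
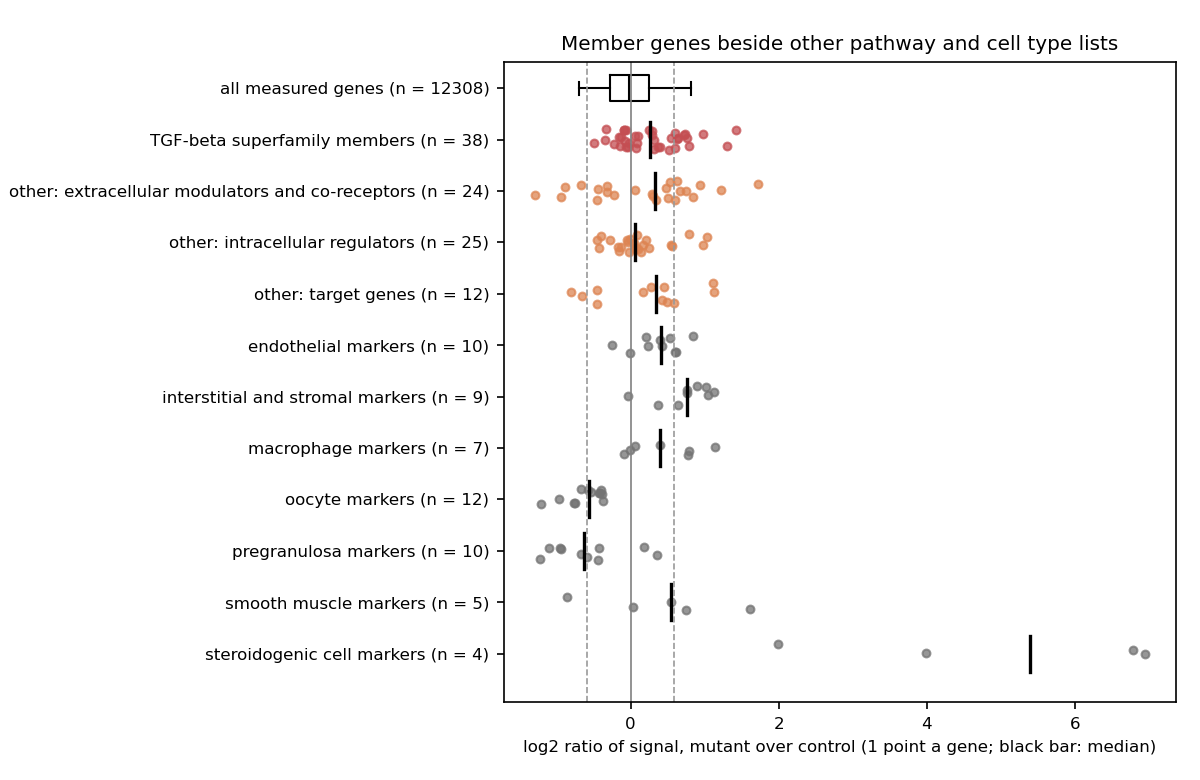
Log2 ratio of mutant over control, 1 point per measured gene, for the member genes (red), the other pathway lists (orange) and the cell type marker lists (grey), with a black bar at each median, dashed lines at 1.5-fold, and a box for all 12308 measured genes (quartiles, whiskers from the 5th to the 95th percentile). The medians were 0.27 for the members, 0.76 for interstitial and stromal markers, -0.56 for oocyte markers and -0.63 for pregranulosa markers.

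Markers of the cell types in the ovary differed between the pools alongside these genes, and in pooled tissue fewer cells of a type and less RNA per cell cannot be told apart. Defining markers of the labelled tissue were present, with all 12 oocyte and all 10 pregranulosa markers measured. Of the interstitial and stromal markers 7 of 9 measured were at least 1.5-fold higher, and their summed signal was 62781 on the control array and 94015 on the mutant array. Over all measured genes, 9.32% were that much higher and 7.9% that much lower. The summed endothelial signal was 3344 and 4228, with 3 of 10 markers at least 1.5-fold higher, and that of macrophage markers was 4677 and 7641, with 3 of 7. Of the macrophage sums, Csf1r alone made up 3274 and 5611. Among the 3 endothelial markers, Pecam1 was measured only through the mutant array, so its difference was a condition of its entry. Smooth muscle markers summed to 8857 and 14126, with 2 of 5 higher and 1 lower by 1.5-fold. The 4 measured steroidogenic markers were all at least 2-fold higher and summed to 6172 and 39942. Cyp17a1 and Cyp11a1, 2 of these 4, were measured only through the mutant array, so their difference was a condition of their entry. Another probe set of Cyp11a1 had a log2 ratio of only 0.26. Oocyte markers summed to 64443 on the control array and 44418 on the mutant array, with 0 higher and 5 lower by 1.5-fold. Pregranulosa markers, a list that holds Fst as well, summed to 34236 and 29515, with 6 lower by 1.5-fold and 2 of 10 above 0. Below 0 lay 2 of 10 endothelial, 2 of 7 macrophage, 1 of 9 interstitial and stromal and 1 of 5 smooth muscle markers. C1qa of the macrophage list and Cnn1 of the smooth muscle list were under the signal minimum, and Insl3 and Lhcgr of the steroidogenic list were not analysed here. The part of these shifts in the differences of the ligands, Ltbp genes, receptors, Smads and Id genes was not tested. The ratio of 3′ to 5′ signal, a measure of RNA integrity, was 8.48 for beta-actin and 3.28 for Gapdh with control RNA, and 10.5 and 4.98 with mutant RNA, and its part was not tested either.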

How the data were processed

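The authors deposited signal intensities on a linear scale for each array. GCOS is named in the submitters' processing notes, with no settings in the sources used here. The equal trimmed means (2% of probe sets removed at each end) show a common scale. Values were used as deposited, with no second background correction or scaling. Gene symbols came from the platform annotation, and the 64 control probe sets of the array, probe sets with several symbols and unlisted ones were left out. Each gene was represented by its brightest measured probe set. With 1 array per group no test was possible, and precision is limited by the number of arrays. Genes were counted at 1.5-fold and 2-fold of the log2 ratio. The calculation was tested on simulated data with less noise than the probe-set SD and with bright genes changed. That test scored the 2-fold limit only, so it does not bear on the 1.5-fold counts. Sequences were read from a RefSeq table (GRCm38.p6). All measured members are named, together with up to 4 genes of each further pathway list by absolute log2 ratio. Fst, Eng and Fn1 lie outside that limit and were named in addition, after their values were seen. The members, lists and the 10 alternative settings were chosen with earlier results of these data known. Calculations used Python 3.11.15, numpy 2.4.6 and pandas 2.3.3.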

Additional observations from a re-analysis of the deposited data

How the results depend on the processing

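The count of members at least 1.5-fold higher, 11 in the reported setting, lay between 7 and 12 under the 10 alternatives, and the count at least 1.5-fold lower was 0 under all of them. Over all measured genes, the share that much higher lay between 6.67% and 11.65% under the alternatives. The share that much lower lay between 4.96% and 10.5%. Raising the signal minimum to the 75th percentile, which removes dim genes, left 28 members, of which 7 passed 1.5-fold upward and 0 passed 2-fold. Of all genes measured at that setting, 7.07% passed 1.5-fold upward and 2.37% passed 2-fold upward. A pseudocount equal to the median signal left 1 member at least 2-fold higher, and with both arrays required to reach the minimum it was also 1. The shares of all measured genes at least 2-fold higher were 2.01% and 1.96% under these settings. The member count rose to 3 with a pseudocount of 1, with the minimum at the 25th percentile and with values raised to the minimum. It was also 3 after centring and after quantile normalization. The shares of all measured genes then lay between 2.92% and 4.22%. The median log2 ratio of the members lay between 0.17, with all measured probe sets of a gene averaged, and 0.31, with ratios centred on the array median, and no member at 1.5-fold or more changed direction. Bmp2, Ltbp1, Ltbp2 and Tgfbr3 were at 1.5-fold or more under all 10 alternatives. Bmp5 was so under all 9 alternatives in which it was measured, and Inhba under all 8 in which it was. Smad1 had its lowest ratio, 0.28, when probe sets shared between transcripts were left out, a setting that also removed Id1, Id2 and Ltbp4. Id2 had 0.47 with its probe sets averaged. With the pseudocount at the median signal Acvrl1, Smad6 and Id3 had 0.42, 0.53 and 0.57, all under 1.5-fold. Inhba had a log2 ratio of 0.94 with the larger pseudocount and 1.02 with values raised to the minimum. No paired analysis was possible because each group holds 1 array.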

Other observations

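A further 13 member genes stayed under the signal minimum of 80.7 on both arrays and entered no comparison. They were Bmp8a, Bmp8b, Bmp10, Gdf2, Gdf3, Gdf5, Gdf11, Tgfb1, Acvr1c, Smad9, Chrd, Grem1 and Nog. Gdf2 and Bmp10, the ligands that bind the endothelial receptor Acvrl1, read 12.6 and 3.4 on the control array and 9.6 and 3.3 on the mutant array. Gdf3, a ligand of early embryonic and germ cells, read 42.2 on the control array and 8.0 on the mutant array on one of its probe sets, and 34.7 and 16.5 on the other. Smad9 read 4.1 on the control array and 39.4 on the mutant array. Grem1 read 23.4 and 40.9, Chrd 29.4 and 40.0, and Nog 5.5 and 14.1. No fold is given for these genes, since both signals lay under the minimum.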
